A study of Rattus norvegicus with 6 samples.

Results

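The cytosolic ribosomal protein genes are the genes whose products, with ribosomal RNA, make up the 60S and 40S subunits of the ribosome outside mitochondria. They were taken as every non-control probe whose accession belonged to a RefSeq gene symbol of the Rpl or Rps series, Rplp0, Rplp2 or Rpsa, with pseudogenes and the Rps6k kinases left out. The selection used symbols alone and no measured value, and gave 240 of 61657 probes and 81 of 15284 named genes. Of the 81 genes, 43 encode 60S proteins, 29 encode 40S proteins and 9 carry the symbol of a copy, such as Rpl22l1 or Rps4y2. The copies were sorted by symbol alone, and for Rpl37l1 no Rpl37 gene was in the set. The rule did not take in Rplp1, which is described below as a gene outside the set.

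Liver RNA was measured on Agilent arrays with 1 dye, 1 rat per array, in 9-week-old male Sprague-Dawley rats of the outbred Crl:CD(SD) stock. Of the 6 rats, 3 were killed after isoflurane, an inhaled anaesthetic, and 3 after CO2/O2, a carbon dioxide and oxygen mixture. Both groups had received corn oil at 5 mL/kg/day, for 3 days by the design text and for 9 weeks by the treatment protocol, and no group without anaesthesia was measured. The question put to the data is whether liver expression differs between these kinds of anaesthesia.

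Ribosomal subunits begin their assembly in the nucleolus, from many different proteins that are needed in roughly equal numbers. The mRNAs for these proteins are abundant in tissues that secrete much protein, such as liver. Most of them start with a C followed by a run of C and T, the terminal oligopyrimidine or TOP sequence, through which the kinase mTOR and the RNA-binding protein LARP1 control their translation. The genome also holds many processed copies of these genes, so a probe can be shared between near-identical transcripts. How far such copies contributed to the signals below was not tested.

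Values are log2 signal relative to the 75th percentile of the same array, so that 0 is that percentile and 1 unit is a factor of 2. That percentile lay between 912.5 and 998.3 intensity units, the share of probes well above background was 53.4% to 62.3%, and no spot was saturated. The 6 arrays, 3 in each group, limit the precision of every value. All 10 hepatocyte markers examined were measured, with albumin (Alb) at 8.94 to 9.07 in isoflurane rats and 8.90 to 9.02 in CO2/O2 rats.

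RefSeq start windows (assembly GRCr8) were available for 65 of the member genes, in 66 windows of 300 bases. A C at the annotated start followed by at least 4 bases that were each C or T was present in 22 of the 66 windows (33.3%), against 2.63% of 33469 windows over all genes. Within 5 bases of the annotated start, the same pattern was found in 38 windows (57.6%), against 17.0% over all genes. The 30-base windows of 8 members are shown because these genes recur below as examples of close and of loose co-variation. In each, 15 bases precede the annotated start and the capitals mark the pyrimidine run that begins at it.
Rplp0: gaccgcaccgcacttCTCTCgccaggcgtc
Rpl31: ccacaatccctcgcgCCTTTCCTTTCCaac
Rps18: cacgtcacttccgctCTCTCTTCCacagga
Rpl19: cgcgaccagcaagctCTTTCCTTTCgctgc
Rps7: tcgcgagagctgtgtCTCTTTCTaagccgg
Rps21: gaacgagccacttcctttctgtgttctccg
Rps4y2: gcgcgcagctctcctcactcgcttgtgctc
Rpl3l: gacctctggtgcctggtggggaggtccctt
The windows lie at chr12:46718376-46718405 on the minus strand for Rplp0, chr9:49143096-49143125 on the plus strand for Rpl31 and chr20:4933730-4933759 on the plus strand for Rps18. Those of Rpl19 and Rps7 lie at chr10:83519049-83519078 on the plus strand and chr6:50999431-50999460 on the minus strand. Those without a run at the annotated start lie on the plus strand, at chr3:187724023-187724052 for Rps21, chr4:183000898-183000927 for Rps4y2 and chr10:14258431-14258460 for Rpl3l. The pyrimidine run was 12 bases long in Rpl31 and 5 bases long in Rplp0. Rps21 and Rps4y2 hold the pattern within 5 bases of the annotated start, though not at it. Rpl3l is a paralog of Rpl3 known mainly from muscle.

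Ribosomal protein mRNAs were among the bright signals in every liver. Of the 240 probes, 233 were well above background on all 6 arrays and were tested, covering 78 of the 81 genes. A gene with several tested probes was represented by the one with the highest mean. By that probe, 77 of the 78 genes lay above the 75th percentile on all 6 arrays, the exception being Rpl3l. Mean levels ran from -2.78 to 8.76 with a median of 6.96, and 67 genes had a mean above 6, whereas the median over all named genes was 0.60. Probe signal also depends on the probe, so the genes are not ranked against each other.

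By subunit, the median level was 7.11 over 43 genes of the 60S subunit and 6.83 over 29 genes of the 40S subunit. The 6 copies tested had a median of 4.08 and spanned -2.78 for Rpl3l to 7.80 for Rpl37l1. Rpl41, which encodes the shortest protein of the set, had 8.79, 8.68 and 8.80 in isoflurane rats and 8.77, 8.74 and 8.78 in CO2/O2 rats. Rpl3l had -2.85, -3.06 and -2.89 in isoflurane rats and -2.29, -2.83 and -2.75 in CO2/O2 rats. Its values were low in all 6 rats, and its other probe was well above background on none.

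Differences in ribosomal protein mRNA between the 2 kinds of anaesthesia were small. Over the 78 genes, the isoflurane minus CO2/O2 difference was positive for 31 and negative for 47. Its median was -0.01, the same as the -0.01 over all 10609 named genes tested, of which 47.1% were positive. The differences ran from -0.31 for Rpl3l to 0.13 for Rps29, and 68 of the 78 were smaller than 0.1 in size.

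No member passed the test. In limma with Benjamini-Hochberg adjustment over all 34637 probes tested, 0 of 233 member probes and 0 of 78 member genes reached an adjusted p of 0.05, where 0.00866% of all probes and 0% of all named genes did. The smallest adjusted p was 0.712 among the genes and 0.460 among the probes. Without adjustment, 0 member genes and 1 member probe had a p under 0.05, against 7.58% of all named genes and 7.55% of all probes. The groups did not overlap for 4 of the 78 genes (5.13%), 1 higher and 3 lower in isoflurane rats, where 14.2% of all named genes did not overlap. Those 4 were Rps25, Rpl3l, Rps4y2 and Rps7.

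The intervals show how large a difference these arrays leave room for. All 78 of the 95% intervals spanned 0, with a median half-width of 0.26, beside 0.29 over all named genes. The interval lay within a 1.5-fold change either way for 75 members (96.2%; 71.8% of all named genes). It lay within a 2-fold change for all 78 members tested (90.5% of all named genes) and within a 1.2-fold change for 14 (17.9%, against 13.3%). These shares were not matched for level, whose median was 6.96 over members and 0.60 over all named genes. The median SD within groups was 0.12 over members and 0.11 over other genes with a mean level above 3. The split of 31 positive and 47 negative differences became 8 and 70 when arrays were centred on their medians, under which the median over all named genes was -0.07. It also turned with single rats, to 59 positive and 19 negative without isoflurane replicate 2 and to 7 and 71 without isoflurane replicate 3. With the mean of a gene's probes in place of 1 probe it was 42 positive and 36 negative. Without CO2/O2 replicate 3 it was 56 positive and 22 negative, and without isoflurane replicate 1 it was 48 and 30.

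**Figure D1:**
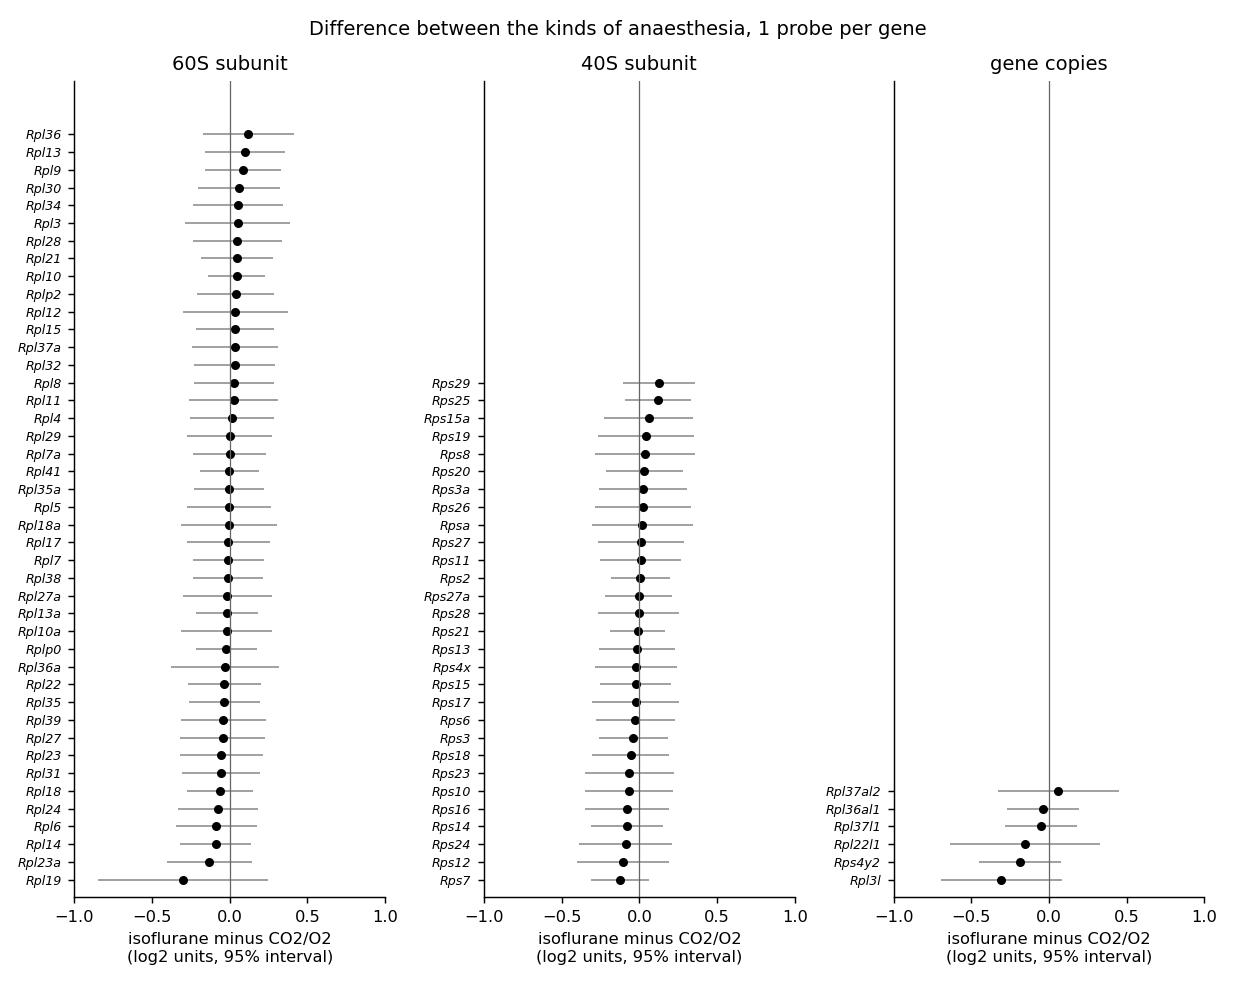
Difference between isoflurane and CO2/O2 rats (horizontal axis, log2 units) for each of the 78 member genes, in panels for 43 genes of the 60S subunit, 29 of the 40S subunit and 6 copies, with points for the estimate and lines for the 95% interval. Every line crosses 0, and the points run from -0.31 for Rpl3l to 0.13 for Rps29.

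Among 60S proteins, 18 genes had a positive and 25 a negative difference, with a median of 0.00 and a range of -0.30 to 0.12. The stalk proteins bind the translation factors that drive elongation. Rplp0, the base of the stalk, had 8.54, 8.51 and 8.65 in isoflurane rats and 8.56, 8.57 and 8.63 in CO2/O2 rats. Rplp2, which pairs with Rplp1 on that base, had 7.71, 7.77 and 7.99 in isoflurane rats and 7.76, 7.74 and 7.84 in CO2/O2 rats. The groups overlapped for both, and the differences were -0.02 ± 0.08 and 0.04 ± 0.10 (SE, n = 3 each; limma adjusted p = 0.971 and 0.952).

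Rpl5, Rpl11, Rpl23 and the 40S protein Rps7 can bind Mdm2 when ribosome assembly is disturbed, which stabilises p53. Rpl5 had 5.66, 5.70 and 5.97 in isoflurane rats and 5.75, 5.72 and 5.87 in CO2/O2 rats. Rpl11 had 7.31, 7.40 and 7.66 in isoflurane rats and 7.34, 7.44 and 7.51 in CO2/O2 rats. The values of each gene overlapped between the groups, with isoflurane replicate 3 the highest rat for both. The differences were 0.00 for Rpl5, 0.02 for Rpl11 and -0.05 for Rpl23.

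The 60S genes with the largest positive moderated t were Rpl36, Rpl13, Rpl9, Rpl10, Rpl30, Rpl21 and Rpl34. Rpl36 had 6.47, 6.38 and 6.63 in isoflurane rats and 6.27, 6.27 and 6.57 in CO2/O2 rats, a difference of 0.12 ± 0.12 (SE; limma adjusted p = 0.844). Rpl13 had 6.94, 6.86 and 7.14 in isoflurane rats and 6.88, 6.97 and 6.79 in CO2/O2 rats, a difference of 0.10 ± 0.11 (SE). The groups overlapped for both genes, with 1 CO2/O2 rat above 2 of the isoflurane rats in each. Rpl10, which joins the 60S subunit late in its maturation, spanned 8.41 to 8.51 in isoflurane rats and 8.38 to 8.42 in CO2/O2 rats. Differences of the other 4 genes ran from 0.05 to 0.09, and the sign turned under at least 1 other processing setting for each of them and for Rpl10.

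On the negative side the 60S genes were Rpl19, Rpl23a, Rpl14 and Rpl6. Rpl23a, whose protein sits at the exit of the peptide tunnel, had 4.47, 4.47 and 4.72 in isoflurane rats and 4.74, 4.55 and 4.76 in CO2/O2 rats. Rpl14 had 7.33, 7.31 and 7.51 in isoflurane rats and 7.41, 7.45 and 7.56 in CO2/O2 rats. In both genes the groups overlapped through isoflurane replicate 3, and the differences were -0.13 ± 0.11 and -0.09 ± 0.10 (SE; limma adjusted p = 0.815 and 0.852). Rpl6 differed by -0.09 ± 0.11 (SE), and by 0.00 as the mean of its probes.

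Among 40S proteins, 12 genes had a positive and 17 a negative difference, with a median of -0.01 and a range of -0.13 to 0.13. Rps6, the protein phosphorylated by the S6 kinases, had 7.75, 7.73 and 7.99 in isoflurane rats and 7.84, 7.77 and 7.92 in CO2/O2 rats. Rps19, whose human counterpart is mutated in Diamond-Blackfan anaemia, had 6.15, 6.18 and 6.49 in isoflurane rats and 6.15, 6.17 and 6.38 in CO2/O2 rats. In both genes replicate 3 was the highest of its group and the groups overlapped. Rps27a, made as a fusion with ubiquitin, had 6.24, 6.19 and 6.37 in isoflurane rats and 6.23, 6.23 and 6.36 in CO2/O2 rats, and so also overlapped.

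Rps29 had 7.75, 7.80 and 7.99 in isoflurane rats and 7.67, 7.70 and 7.78 in CO2/O2 rats. Its highest CO2/O2 rat lay above its lowest isoflurane rat, and the difference was 0.13 ± 0.10 (SE; limma adjusted p = 0.790). Rps25, a protein that several viral internal ribosome entry sites depend on, had 4.66, 4.63 and 4.81 in isoflurane rats and 4.58, 4.62 and 4.53 in CO2/O2 rats. All isoflurane rats were narrowly above all CO2/O2 rats, and the difference was 0.12 ± 0.09 (SE; limma adjusted p = 0.780). The other probe of Rps25 differed by -0.03. Rps15a, at 0.06 ± 0.12 (SE), completed the positive side, with a value of -0.11 within the first row of the slide.

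Rps7 had 6.20, 6.12 and 6.18 in isoflurane rats and 6.25, 6.31 and 6.33 in CO2/O2 rats. Every isoflurane rat was below every CO2/O2 rat, with a difference of -0.13 ± 0.08 (SE; limma adjusted p = 0.741). By its other probe, Rps7 had 6.07, 6.05 and 6.55 in isoflurane rats and 6.14, 6.10 and 6.21 in CO2/O2 rats, a difference of 0.08. That probe placed isoflurane replicate 3 highest and the groups overlapped. Rps12 and Rps14 had differences of -0.10 ± 0.12 and -0.08 ± 0.10 (SE), and their groups overlapped.

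The copies had 1 positive and 5 negative differences, with a median of -0.10. Rpl3l differed by -0.31 ± 0.16 (SE; limma adjusted p = 0.712), and all 3 isoflurane rats were below all 3 CO2/O2 rats. Its parent Rpl3, a protein close to the peptidyl transferase centre, had 6.38, 6.35 and 6.73 in isoflurane rats and 6.47, 6.26 and 6.57 in CO2/O2 rats, with groups that overlapped. Rpl22l1, the paralog of Rpl22, had 4.27, 4.26 and 4.67 in isoflurane rats and 4.32, 4.41 and 4.93 in CO2/O2 rats. The groups overlapped, and the difference of -0.15 ± 0.20 (SE) turned to 0.04 without CO2/O2 replicate 3. Rpl36al1, Rpl37l1 and Rpl37al2 differed by -0.04, -0.05 and 0.06.

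Rps4y2 held the 1 member probe with an unadjusted p under 0.05. The name is that of a Y-linked relative of Rps4x, but the RefSeq gene lies on chromosome 4 in GRCr8. By the probe A_64_P037993, its level was 0.67, 0.24 and 0.41 in isoflurane rats and 1.83, 1.58 and 1.28 in CO2/O2 rats. The groups were well apart, and the difference was -1.12 (95% interval -1.55 to -0.69; limma unadjusted p = 0.000605 and adjusted p = 0.460). Over 17 other settings the difference ran from -1.26 to -0.89 and the adjusted p from 0.221 to 0.975. By the brighter probe A_64_P037994, Rps4y2 had 3.65, 3.41 and 3.73 in isoflurane rats and 3.74, 3.75 and 3.85 in CO2/O2 rats. That probe also kept the groups apart, but narrowly, and its difference was -0.19 ± 0.11 (SE; limma adjusted p = 0.734). Rps4x, the X-linked gene, had 5.02, 5.01 and 5.29 in isoflurane rats and 5.13, 5.06 and 5.20 in CO2/O2 rats, which overlapped.

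**Figure D2:**
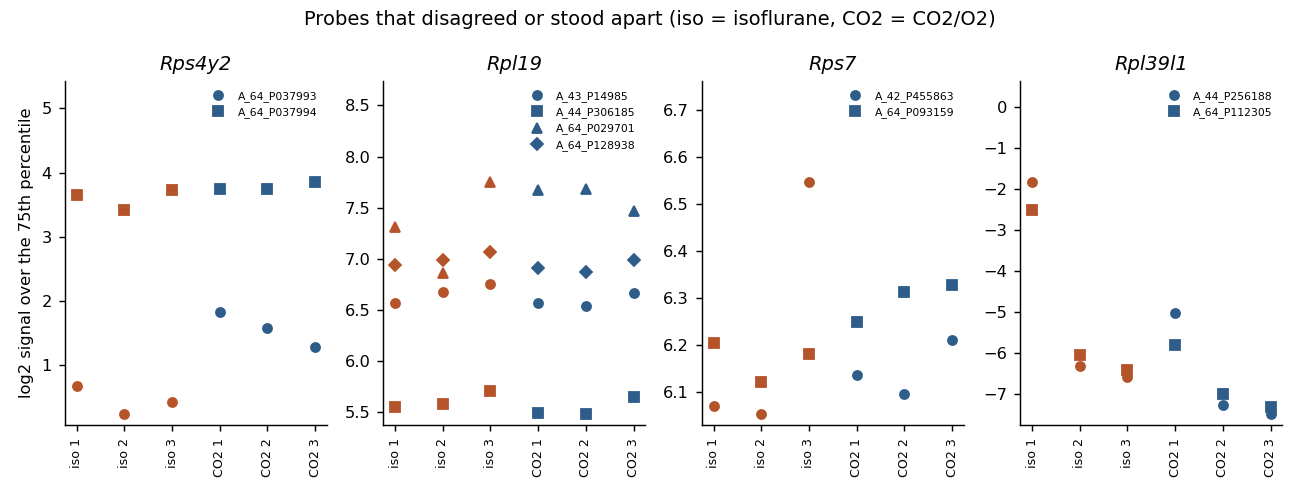
Level of each probe (vertical axis, log2 signal relative to the array's 75th percentile, a separate scale per gene) in each of 6 rats, isoflurane in orange and CO2/O2 in blue, for Rps4y2, Rpl19, Rps7 and the untested copy Rpl39l1. Marker shapes stand for probes: 1 probe of Rps4y2 separates the groups by -1.12, 1 of 4 probes of Rpl19 departs from the others, and both probes of Rpl39l1 are highest in isoflurane replicate 1.

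No probe of 3 genes, Rpl27l2, Rpl39l1 and Rps12l4, was well above background in all rats of a group, and these were not tested. Rps12l4 was well above background on 3 of 6 arrays, and Rpl27l2 and Rpl39l1 on 1 each.

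The larger pattern in these livers was between rats. Most ribosomal protein mRNAs moved up and down together, and the rats that were high or low did not divide by anaesthesia. After each gene's mean over the 6 rats was taken off, the mean over 78 genes was -0.07, -0.10 and 0.15 in isoflurane replicates 1 to 3 and -0.02, -0.04 and 0.09 in CO2/O2 replicates 1 to 3. Isoflurane rats thus included both the lowest and the highest, and CO2/O2 rats lay between them. The mean difference between the groups was -0.02, beside a spread within groups of 0.14 in isoflurane rats and 0.07 in CO2/O2 rats (SD, n = 3 each). These are small shifts, with a range of 0.25 over the rats.

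**Figure D3:**
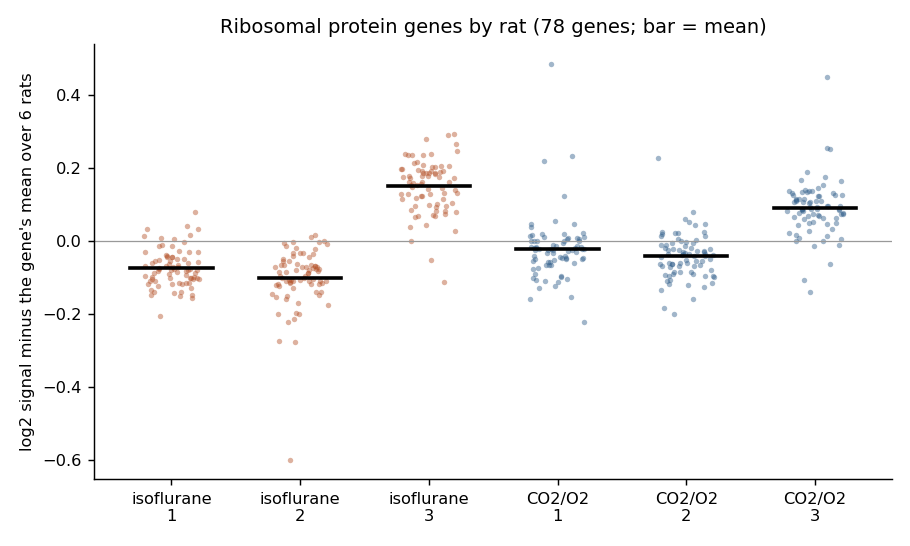
Deviation of each of 78 ribosomal protein genes from its own mean over 6 rats (vertical axis, log2 units), by rat, with isoflurane in orange, CO2/O2 in blue and black bars for the mean over genes. The bars stand highest in isoflurane replicate 3 at 0.15 and CO2/O2 replicate 3 at 0.09, and lowest in isoflurane replicate 2 at -0.10.

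Of the 78 genes, 57 were highest in isoflurane replicate 3 and 18 in CO2/O2 replicate 3, and 39 were lowest in isoflurane replicate 2. The shift was alike in both subunits. In isoflurane replicate 3 it was 0.16 over 60S genes and 0.14 over 40S genes, and in isoflurane replicate 2 it was -0.10 and -0.09. The copies differed in order, with 0.19 in CO2/O2 replicate 3 and 0.08 in isoflurane replicate 3. Over the 2372 other genes with a mean level above 3, the same mean deviation stayed between -0.03 and 0.04 in the 6 rats. Those genes were not matched to the members in level, whose median was 6.96.

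Correlations across the 6 rats are given as descriptions. They share arrays and scaling within each rat. Over the 3003 pairs of member genes the median Pearson r was 0.81 (0.28 at the 10th percentile and 0.95 at the 90th), the median Spearman rho was 0.66, and 96.2% of pairs were above 0. Over all pairs of named genes the median r was 0.01, and over pairs of other genes with a mean level above 3 it was 0.04. Such tightness was not particular to the members. The median pairwise r was 0.85 over 11 Kupffer cell markers and 0.86 over 3 neutrophil markers. It was 0.68 over 9 lymphocyte markers, 0.63 over 21 other TOP mRNAs and 0.06 over 10 hepatocyte markers. Among 60S genes the median was 0.86, among 40S genes 0.76 and among copies 0.68. With group means taken off it was 0.87 over members and 0.01 over all named genes.

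The median r was lower without the 2 rats that stood out in the member mean. Without isoflurane replicate 3 and CO2/O2 replicate 3, the rats farthest from the median of the member mean, it was 0.31 over member pairs and 0.02 over all named genes. These rats were picked by the member mean itself, which lowers r among members by the choice alone. In the same remaining rats it was 0.87 over Kupffer cell markers, 0.49 over ribosome assembly genes, 0.16 over other TOP mRNAs and 0.06 over mitochondrial ribosomal protein genes. Leaving out 1 rat at a time gave medians from 0.72, without isoflurane replicate 3, to 0.84. Quantile normalization gave 0.66 and narrowed the range of the member mean over rats to 0.18.

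**Figure D4:**
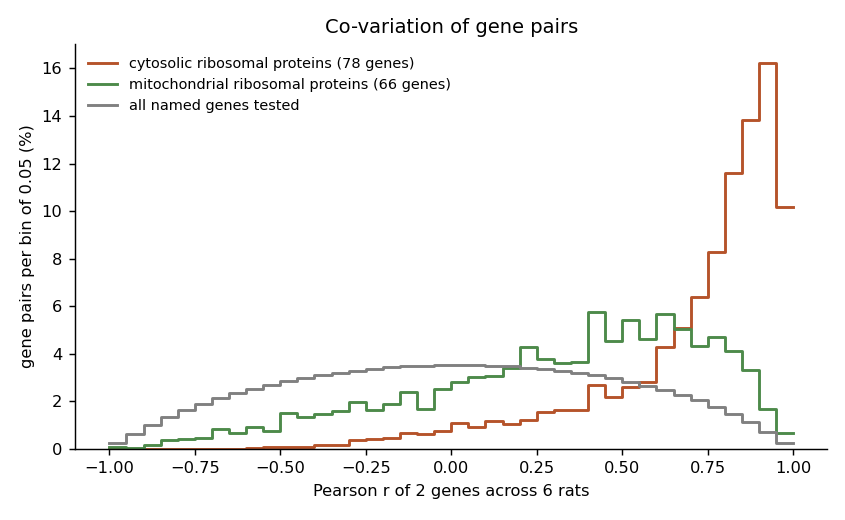
Share of gene pairs (vertical axis, percent per bin of 0.05) by their Pearson r across 6 rats (horizontal axis), for 78 cytosolic ribosomal protein genes, 66 mitochondrial ribosomal protein genes and all named genes tested. Pairs of cytosolic genes gather toward 1 with a median of 0.81, pairs of mitochondrial genes have a median of 0.40, and pairs of all genes centre near 0.

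Against the mean of the other members, 43 of the 78 genes (55.1%) had an r above 0.9, where 1.52% of 10519 other named genes reached that with the member mean. The share was 28 of 43 among 60S genes, 14 of 29 among 40S genes and 1 of 6 among copies, which was Rpl37l1. Rpl7 had 6.62, 6.57 and 6.80 in isoflurane rats and 6.64, 6.63 and 6.74 in CO2/O2 rats, with r = 0.996. Rpl36a had 5.44, 5.38 and 5.80 in isoflurane rats and 5.52, 5.46 and 5.73 in CO2/O2 rats, with r = 0.995. In both genes the rats kept the order of the member mean, replicate 3 of each group being its highest. Rplp0 and Rps6 had r = 0.982 and 0.988, Rpl31 0.938 and Rps18 0.894.

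Another 7 genes had an r of 0.5 or less: Rpl3l, Rps21, Rps7, Rps24, Rps25, Rpl13 and Rpsa. Rps21 had 6.59, 6.54 and 6.57 in isoflurane rats and 6.60, 6.58 and 6.56 in CO2/O2 rats, a spread within groups of 0.02, with r = 0.06 by its single probe. It was the steadiest of the 78 genes and did not single out replicate 3 of either group. Rpsa, which also serves as a laminin receptor, had 5.47, 5.32 and 5.42 in isoflurane rats and 5.29, 5.21 and 5.64 in CO2/O2 rats, with r = 0.49. Rps24 had 6.32, 6.12 and 6.39 in isoflurane rats and 6.56, 6.28 and 6.26 in CO2/O2 rats, with r = 0.29. For Rps24, CO2/O2 replicate 3 was the lowest of its group, and its other probe had r = 0.927. Other probes also followed the member mean for Rps7 (r = 0.912) and Rps25 (r = 0.932).

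The spread between rats of a group was a median SD of 0.12 over members, beside 0.15 over all named genes and 0.11 over other genes with a mean level above 3. It was largest for Rpl19 at 0.33, Rpl22l1 at 0.28, Rpl3l at 0.22, Rpl37al2 at 0.22 and Rpl36a at 0.19. After Rps21, it was smallest for Rpl10, Rps7, Rps2 and Rpl41, between 0.04 and 0.05.

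Co-variation was also set against the TOP pattern at the annotated start, with no test. Over the windows of tested genes, the median r with the other members was 0.913 in 22 with it and 0.902 in 41 without it, and the lowest were 0.26, of Rps7, and 0.05, of Rpl3l. Median differences between the kinds of anaesthesia were -0.02 with the pattern and -0.01 without it. The letters CTTCCG or their reverse complement CGGAAG, the core of sites for ETS factors, were in 35 of 66 member windows (53.0%), against 16.6% of all windows. The letters AAGATGGC or GCCATCTT, a form of the YY1 site, were in 5 (7.58%), against 3.17%. Both strands were searched, and the patterns can overlap, since CGGAAG ends in the letters that AAGATGGC begins with.

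Of the named genes outside the set, the 5 whose values across the 6 rats were most like the member mean were Rplp1, C7h8orf76, Dcaf13, Ndufs1 and Ugdh, with Pearson r between 0.979 and 0.998. Rplp1, the stalk protein that the symbol rule leaves out, had 8.26, 8.24 and 8.44 in isoflurane rats and 8.29, 8.28 and 8.39 in CO2/O2 rats, with r = 0.998. Its order over the rats was that of the member mean.

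Other mRNAs of the translation apparatus followed the same rats less closely. Of 23 other mRNAs known to carry a TOP sequence, mostly elongation and initiation factors, 21 were tested, with a median r of 0.73 with the member mean, beside 0.90 for members with the rest of the set. Their mean deviation was -0.04, -0.10 and 0.13 in isoflurane rats and -0.06, -0.01 and 0.08 in CO2/O2 rats, so that replicate 3 of each group was again its highest. The 66 mitochondrial ribosomal protein genes had a median r of 0.63 with the member mean, and 39 ribosome assembly genes 0.47. The 14 genes of mTOR and TOP control had a median r of -0.05 and 8 common reference genes 0.08. In each of these lists 0 genes passed the test between the kinds of anaesthesia, with 9 of 21 other TOP mRNAs, 35 of 66 mitochondrial genes, 17 of 39 assembly genes and 8 of 14 mTOR genes on the positive side.

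Of the assembly genes, Rrs1, Nip7 and Eif6 had the largest moderated t, with differences of -0.22 ± 0.08, -0.27 ± 0.10 and 0.19 ± 0.08 (SE; limma adjusted p = 0.625, 0.652 and 0.661). Of the other TOP mRNAs, these were Eif3a at -0.12, Eif3e at -0.11 and Rack1, a scaffold on the 40S subunit, at 0.12. Mrpl52 led the mitochondrial list at 0.46 ± 0.17 (SE; limma adjusted p = 0.649). Myc, a transcription factor that drives ribosome assembly, differed by -1.01 ± 0.19 (SE; limma adjusted p = 0.482), followed in its list by Maf1 at 0.12 and Mlst8 at -0.13. None of these differences passed the adjusted threshold. Among the reference genes, Gusb differed by -0.15 and Tbp by -0.08.

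Markers of stellate cells and of blood cells also differed between the rats that stood apart in ribosomal protein levels. The mean deviation of 7 stellate cell markers was 0.00, 0.19 and -0.23 in isoflurane rats and 0.07, 0.16 and -0.18 in CO2/O2 rats, lowest in the 2 rats with the highest member mean. Their summed level was 4.09 to 6.98 in isoflurane rats and 4.40 to 6.78 in CO2/O2 rats, and their median r with the member mean was -0.55, with Des at -0.91 and Col1a1 at -0.90. In isoflurane replicate 3, where the member mean was highest, the mean deviation was -0.70 over 3 neutrophil markers, -0.60 over 6 erythroid markers and -0.52 over 9 lymphocyte markers, each the lowest of the 6 rats. In CO2/O2 replicate 3, the other high rat, these were -0.09, 0.04 and 0.00. The summed level of the 9 lymphocyte markers was -16.19 to -11.36 in isoflurane rats and -11.54 to -8.87 in CO2/O2 rats. That of the 6 erythroid markers was 6.73 to 11.73 in isoflurane rats and 10.58 to 12.67 in CO2/O2 rats, and that of the 3 neutrophil markers -5.01 to -1.70 and -3.19 to -1.56. The median r with the member mean was -0.50 for lymphocyte, -0.55 for erythroid and -0.55 for neutrophil markers, and the part of these lists in the ribosomal protein pattern was not tested. The neutrophil markers Mpo, Elane, Csf3r and Cxcr2 and the lymphocyte markers Cd3e, Cd2, Cd79a and Ms4a1 were not among the tested genes.

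Kupffer cell markers were lower in isoflurane rats in 11 of 11 cases, with a median difference of -0.33 and 0 past the adjusted threshold. Their summed level was 29.2 to 30.7 in isoflurane rats and 31.3 to 35.6 in CO2/O2 rats, and their median r with the member mean was -0.24. Lymphocyte markers were lower in 9 of 9 cases, neutrophil markers in 3 of 3, erythroid markers in 5 of 6 and cholangiocyte markers in 4 of 5, with median differences of -0.35, -0.44, -0.34 and -0.33. These counts carry little weight for dim markers, which could be tested through the group where they were higher. Krt7, for example, had means of -4.71 in isoflurane rats and -4.38 in CO2/O2 rats. The share of probes well above background was lowest in isoflurane replicates 2 and 3, at 53.4% and 55.7%. The summed level of the 5 cholangiocyte markers was -12.39 to -11.86 in isoflurane rats and -11.00 to -9.57 in CO2/O2 rats, and their median r with the member mean was -0.31. Stellate cell markers were lower in 3 of 7 cases and sinusoidal endothelium markers in 3 of 4, and 0 markers of any of these lists passed the adjusted threshold. In whole liver, fewer cells of a type and less RNA per cell cannot be told apart. The 10 hepatocyte markers had a median difference of 0.03 and a median r of -0.34 with the member mean.

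The rats also differed in the place of their arrays on the slide, as the scanner output numbers it. All 3 CO2/O2 arrays and isoflurane replicate 1 lay in row 1, and isoflurane replicates 2 and 3, the lowest and the highest by member mean, lay in row 2. Within row 1, the median r over member pairs was 0.76 and the differences were positive for 11 genes and negative for 67, from 1 isoflurane rat.

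The probes of a gene were compared with each other in their differences and over the rats. Of the 78 genes, 71 had at least 2 tested probes, 226 probes in all. The differences of a gene's probes lay within 0.1 of each other in 48 genes and spread over more than 0.2 in 6. The median spread was 0.07, and most differences were themselves smaller than 0.1, so closeness of the probes carries little weight here. The sign differed among the probes of 42 of the 71 genes. The median r between probes of a gene across the 6 rats had a median of 0.89 over genes, above 0.9 in 33 genes and below 0.5 in 6. The 155 tested probes that did not represent their gene had a median r of 0.91 with the member mean.

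**Figure D5:**
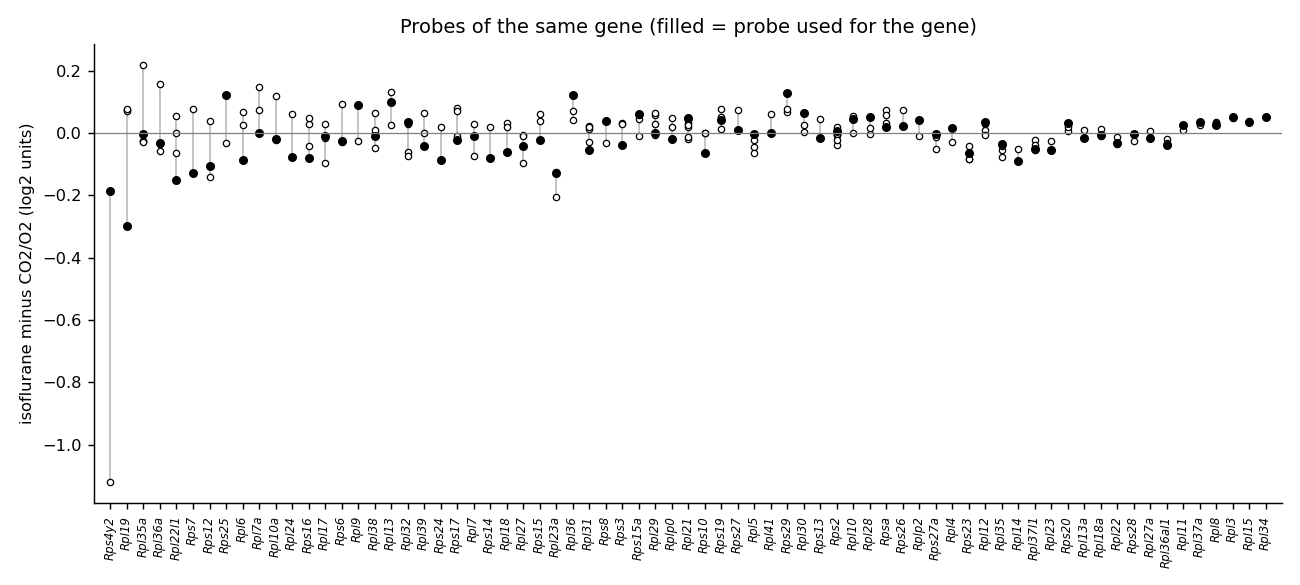
Isoflurane minus CO2/O2 difference (vertical axis, log2 units) of every tested probe of the 71 genes with at least 2, ordered by the spread within the gene, with the probe that represents the gene filled. The spread is 0.93 in Rps4y2 at the left and falls below 0.1 in 48 genes.

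The least agreement was in Rps4y2, with a spread of 0.93, followed by Rpl19 (0.38), Rpl35a (0.25), Rpl36a (0.21), Rpl22l1 (0.21) and Rps7 (0.20). Rpl19, a 60S protein that helps bridge the subunits, had 7.32, 6.86 and 7.75 in isoflurane rats and 7.68, 7.69 and 7.46 in CO2/O2 rats by its brightest probe. The difference was -0.30 ± 0.23 (SE; limma adjusted p = 0.792), with isoflurane rats both lowest and highest, and it was -0.08 without isoflurane replicate 2 and -0.52 without isoflurane replicate 3. Its 3 other probes differed by 0.07 to 0.08. In Rpl35a, 4 of 5 probes differed by -0.03 to 0.00 and the probe A_44_P182934 by 0.22, with an r of -0.01 with the member mean, against 0.74 to 0.93 for the other 4. In Rpl36a, the probe A_64_P142465 stood at 0.16 with r = -0.08, and the other 3 tested at -0.06 to -0.03 with r of at least 0.985.

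The closest agreement was in Rpl34, Rpl15, Rpl3 and Rpl8. Both probes of Rpl34 differed by 0.05, both of Rpl15 by 0.03 to 0.04 and both of Rpl3 by 0.05, and the 3 probes of Rpl8 by 0.03 to 0.04. The probes of Rpl3 had r = 0.995 with each other over the 6 rats.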

How the data were processed

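The deposited spot values are intensity values on a linear scale, corrected for background within each array per the file headers, and images were read with Agilent Feature Extraction 10.7 per the submitters' processing notes. The authors' deposited value table is a linear ratio: set against the scanner output, each column equalled the processed intensity over a constant near that array's 75th percentile, without centring of probes. Its column medians were 0.0917, 0.0901 and 0.0905 for isoflurane and 0.0864, 0.0882 and 0.0868 for CO2/O2 arrays. The sources used here do not say how that constant was chosen.

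The log2 of each processed intensity, as deposited, was reduced by its array's 75th percentile over non-control probes. Spots marked as outliers were left out; none was a member's. Probes well above background on all 3 arrays of a group were tested with limma 3.58.1 (lmFit, eBayes) in R 4.3.3, with Benjamini-Hochberg adjustment over all 34637, and differences are isoflurane minus CO2/O2. Accessions were matched to RefSeq GRCr8 genes; 27460 of 61657 probes matched 1 gene and 0 several. The array headers name another build, so positions come from RefSeq only. Tables were made with Python 3.11.15, pandas 2.3.3 and numpy 2.4.6.

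The isoflurane against CO2/O2 test was checked on simulated data (20 sets, 34637 probes, 100 changes of each size): 75.8% of 2-fold and 96.6% of 4-fold changes were recovered and 5.82% of calls were false. Noise was drawn independently for each probe, and the changes were placed only among the brighter probes. These shares therefore need not hold for the real arrays, where 3 of 34637 probes passed. Replicate numbers were not used as pairs in the main test. Deviations of same-numbered arrays correlated at 0.11, 0.02 and 0.06 over all probes compared. Of the 78 member genes, 69 had replicate 3 as the highest rat of each group. Whether rats of the same number shared handling was not tested.

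The members and lists were chosen with earlier results of these data known. Genes were named if past the threshold, if among the 10 largest moderated t in either direction, the 6 least and 4 most consistent between probes or the 5 most and 5 least variable within groups, if on the role lists, or if untested. From other lists, 3 genes by moderated t were named, and 5 by likeness to the member mean; some genes that this rule takes are not reported here. Genes printed as examples of high or low correlation were chosen after their values were seen. Alternatives were normexp with an offset of 50 (on the median signal), quantile normalization, median centring, the authors' table, other filters, outlier spots kept, eBayes with trend and robust, a replicate block, the slide row, the mean of a gene's probes, an unadjusted threshold and each array left out. Slide and scan time were the same for the 6 arrays and could not serve as blocks.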

Additional observations from a re-analysis of the deposited data

Results flagged for a closer look

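Signals appeared in probes of 2 copies that were left untested because they were at background in most rats. The probe A_44_P256188 of Rpl39l1, a copy of the exit-tunnel protein gene Rpl39, stood at -1.83 in isoflurane replicate 1, against at most -6.32 in the other isoflurane rats and at most -5.03 in CO2/O2 rats. Its second probe A_64_P112305 stood at -2.52 in the same rat, against at most -6.06 in the other isoflurane rats and at most -5.81 in CO2/O2 rats. Both probes of Rpl39l1 were well above background in that rat alone. The probe A_64_P139679 of Rpl27l2 stood at -3.10 in isoflurane replicate 3, against at most -6.19 in the other isoflurane rats and at most -6.78 in CO2/O2 rats. Each signal came from 1 rat and no difference was tested. On these arrays 3326 probes (5.39%) were well above background on 1 array only.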

How the results depend on the processing

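No member probe or gene passed the adjusted threshold under any alternative run, and the count of member probes was 1 at an unadjusted p under 0.05. With the replicate number as a block, 0 member probes and 0 member genes passed. The 20 genes with the largest moderated t and the second Rps4y2 probe were followed through 377 alternative values, of which 0 passed (smallest adjusted p 0.221) and 18, in 8 genes, had the opposite sign. Sign turned for Rps15a at -0.000866 with normexp; for Rpl34 at -0.00766, Rpl21 at -0.0119 and Rpl10 at -0.0152 with median centring; for Rpl6 at 0.00124 with the mean of a gene's probes. With the slide row as a block, and, chosen after seeing the data, within row 1, values were -0.0505 for Rpl34, -0.109 for Rps15a, -0.0727 for Rpl30 and -0.000481 for Rpl9. Leaving out 1 array gave ranges of -0.0532 to 0.105 for Rpl34, -0.0145 to 0.0922 for Rpl21, -0.0433 to 0.146 for Rps15a, -0.031 to 0.13 for Rpl30 and -0.286 to 0.0351 for Rpl22l1. The causes were not tested. The median difference of members ranged from -0.0835 to 0.0346 with 1 array left out, and stood at -0.0858 under the slide-row block, -0.0847 within row 1, -0.0691 with median centring and 0.00725 with the mean of a gene's probes. The median pairwise r was 0.66 with quantile normalization, 0.31 without the 2 arrays farthest from the median of the member mean (chosen after seeing the data), and 0.725 to 0.838 with 1 array left out.

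With 3 rats per group, the intervals of all 78 tested member genes spanned 0, while that of the Rps4y2 probe A_64_P037993 did not. Signal over background did not limit the tested members, all of which were well above it on every array.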
